A study of Mus musculus with 16 samples.

Results

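A set of rapidly inducible genes was followed through both sorted cell populations of the mouse colon. It held Fos, Fosb and Fosl2 of the Fos family, Jun, Junb and Jund of the Jun family, and Egr1, Atf3, Ier2 and Ier3. The genes were chosen by symbol, as known immediate early genes. They are 10 of the 45513 genes in the count tables, each matched 1 row, and 10 of the 10 passed the filter on low counts.

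Immediate early genes are transcribed within minutes of a stimulus from factors that are already present in the cell, and most of their mRNAs are short-lived. Fos and Jun proteins pair through leucine zippers to form AP-1, which binds DNA and drives later genes, while Egr1 binds DNA through zinc fingers and Atf3 is a stress-induced partner of the same leucine zipper class. In the intestinal epithelium these genes respond to growth factors, luminal signals and injury, and they also respond to the enzymes, the warmth and the loss of contacts that cells meet when a tissue is taken apart for sorting.

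The colon data comprised 16 RNA sequencing libraries from 8 adult mice on a C57BL/6 background, whose sex the labels do not give. All 8 carried Atoh1(WT)CreERT2, in which an inducible Cre recombinase is made from the locus of Atoh1, the transcription factor of secretory cells, together with 1 copy of the Rosa26 tdTom reporter. All 8 mice received tamoxifen, 1 mg per day on 3 days according to the labels. The paper's methods give the same dose for the mice that defined the secretory signature. Its methods on sequencing instead describe a single injection and collection on the following day. Each mouse gave a tdTom+ and a tdTom- library, so that each group held 8 libraries and no group was left untreated or unsorted. The methods on sequencing name EpCAM+ live cells for tdTom+ and do not describe the gate for tdTom-. The colon was incubated warm in EDTA to release crypts, the crypts were dissociated with trypsin, and the cells were stained, sorted and lysed at once. The sorting time of each population is not given, so whether both were handled alike is not known. A level in the undisturbed tissue was not measured.

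Total counts were 16482530 to 24218367 in the tdTom+ libraries and 18318172 to 45791503 in the tdTom- libraries, the largest being tdTom- of mouse 4. Values below are counts normalized to library size (CPM), with library sizes scaled by TMM, a method that sets the bulk of genes equal between libraries. The labels were checked with marker genes. All 6 goblet cell markers were higher and all 6 absorptive cell markers lower in tdTom+ cells (edgeR, adjusted p under 0.01), while all 5 enteroendocrine markers were lower in tdTom+ cells. Of 5 tuft cell markers 3 were lower, and 4 with the mouse as a block. Of 7 stem and cycling cell markers 5 were lower, and 7 with the block, at a median log2 fold change of -0.40 in both fits, and their summed level was 411 to 680 CPM in tdTom+ and 540 to 975 CPM in tdTom- libraries. The 10 immune markers, 3 of them above the filter, summed to 6.65 to 11.0 CPM in tdTom+ and 11.0 to 19.7 CPM in tdTom- libraries, and the 11 stromal and endothelial markers to 5.24 to 7.25 and 7.52 to 10.1 CPM. Of the 3 immune markers tested, 2 were lower in tdTom+ cells and 0 higher. They were Ptprc, at a mean of 2.17 against 6.23 CPM, and Cd68, at 1.05 against 1.87 CPM. Of 4 stromal and endothelial markers tested, 2 were lower and 0 higher. They were Pecam1, at 0.87 against 2.63 CPM, and Acta2, at 3.37 against 4.50 CPM. Other markers were nearly absent. The T cell gene Cd3g was at 0 in 8 of 8 tdTom+ libraries and had at most 2 counts in a tdTom- library. The stromal gene Lum was at 0 in all 16 libraries. The part of such cells in the differences below was not tested, and in sorted bulk samples fewer cells of a kind and less RNA per cell cannot be told apart.

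The letters just upstream of these genes are shown because AP-1 and CREB sites, serum response elements and TATA boxes are the classical routes by which this class of gene is induced, and because most of the genes moved together between mice. RefSeq start sites on GRCm38.p6 were found for 8 of the 10 genes, all but Egr1 and Ier2, and 1 start was searched per gene. The start used for Atf3, on the minus strand at 191183333, lies inside the counted gene, which runs to 191218039. Its window is therefore not that of the outermost start. In the 250 bases before the start, both strands were searched for TGACGTCA (the full CREB site), TGACNTCA (which includes the former), TGANTCA (the AP-1 site), the CArG box by name, TATAAA and GGGCGG (the GC box). The 120 bases before the start are printed for 6 genes, 5′ to 3′ on the strand of the gene and ending at the base before the start, with every match in capitals. TGACG, the core of the CREB site and contained in TGACGTCA, was added after the windows had been read, and it is in capitals as well.
Fos (chr12:85473770-85473889, plus strand): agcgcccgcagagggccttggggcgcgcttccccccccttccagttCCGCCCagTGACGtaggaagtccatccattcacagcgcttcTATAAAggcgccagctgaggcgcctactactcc
Fosb (chr7:19310046-19310165, minus strand): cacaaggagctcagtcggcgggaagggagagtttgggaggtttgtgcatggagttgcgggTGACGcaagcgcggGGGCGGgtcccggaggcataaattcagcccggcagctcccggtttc
Fosl2 (chr5:32136352-32136471, plus strand): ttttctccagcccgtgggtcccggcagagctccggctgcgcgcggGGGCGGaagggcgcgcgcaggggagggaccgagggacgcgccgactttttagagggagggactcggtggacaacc
Jun (chr4:95052223-95052342, minus strand): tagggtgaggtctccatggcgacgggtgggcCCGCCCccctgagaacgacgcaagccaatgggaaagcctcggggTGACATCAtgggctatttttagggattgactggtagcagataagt
Junb (chr8:84978749-84978868, minus strand): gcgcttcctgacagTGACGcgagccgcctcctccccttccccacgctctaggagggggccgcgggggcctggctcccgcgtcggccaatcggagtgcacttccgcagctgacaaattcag
Atf3 (chr1:191183334-191183453, minus strand): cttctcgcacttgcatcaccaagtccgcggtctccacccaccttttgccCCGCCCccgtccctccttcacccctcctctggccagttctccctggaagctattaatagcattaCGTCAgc

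Jun held TGACATCA, a match to TGACNTCA that 7.49% of all 32851 promoters of the table hold, at positions -45 to -38 from its start. Fos held TATAAA at -33 to -28, a motif in 12.4% of promoters. The core TGACG was present in Fos, at -66 to -62 and again outside the printed stretch, in Fosb, in Junb and, on the opposite strand, in Atf3, that is in 4 of the 8 genes against 17.8% of all promoters. The GC box was present in 6 of the 8 genes, Fos, Fosb, Fosl2, Jun, Atf3 and Ier3, against 32.7% of promoters. TGACGTCA, TGANTCA and the CArG box were in none of the 8 windows and in 1.55%, 6.75% and 1.47% of promoters. Bases more than 250 before the start were not searched, nor were Egr1 and Ier2, so these genes may hold such sites elsewhere. A match of letters is a description of the window, and these data do not measure binding to it.

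The first comparison asked whether tdTom+ and tdTom- cells of the colon differed in these genes. Without a term for the mouse, 2 of the 10 genes, Fosl2 and Ier3, were lower in tdTom+ cells at an edgeR adjusted p under 0.01, and 0 were higher. Over all 15841 genes tested, 25.5% were lower and 25.5% were higher at the same threshold. Because both libraries of a pair came from 1 animal, the fit was repeated with the mouse as a block. Then 8 of the 10 genes were lower and 0 were higher, against 28.9% of all genes lower and 28.4% higher. The same 8 genes were lower in tdTom+ than in tdTom- cells in 8 of 8 mice, and Fosb and Ier2 were the exceptions. How many of all genes were lower in 8 of 8 mice, or had groups without overlap, was not counted. The median log2 fold change of the 10 genes was -0.41, and -0.40 with the block, beside a median over all genes of 0.0039 and 0.0032. The stem and cycling cell markers had a median of the same size. The 6 epithelial markers had a median of -0.47 in both fits, with 5 lower and 1 higher. The part of either list in the difference was not tested.

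**Figure D1:**
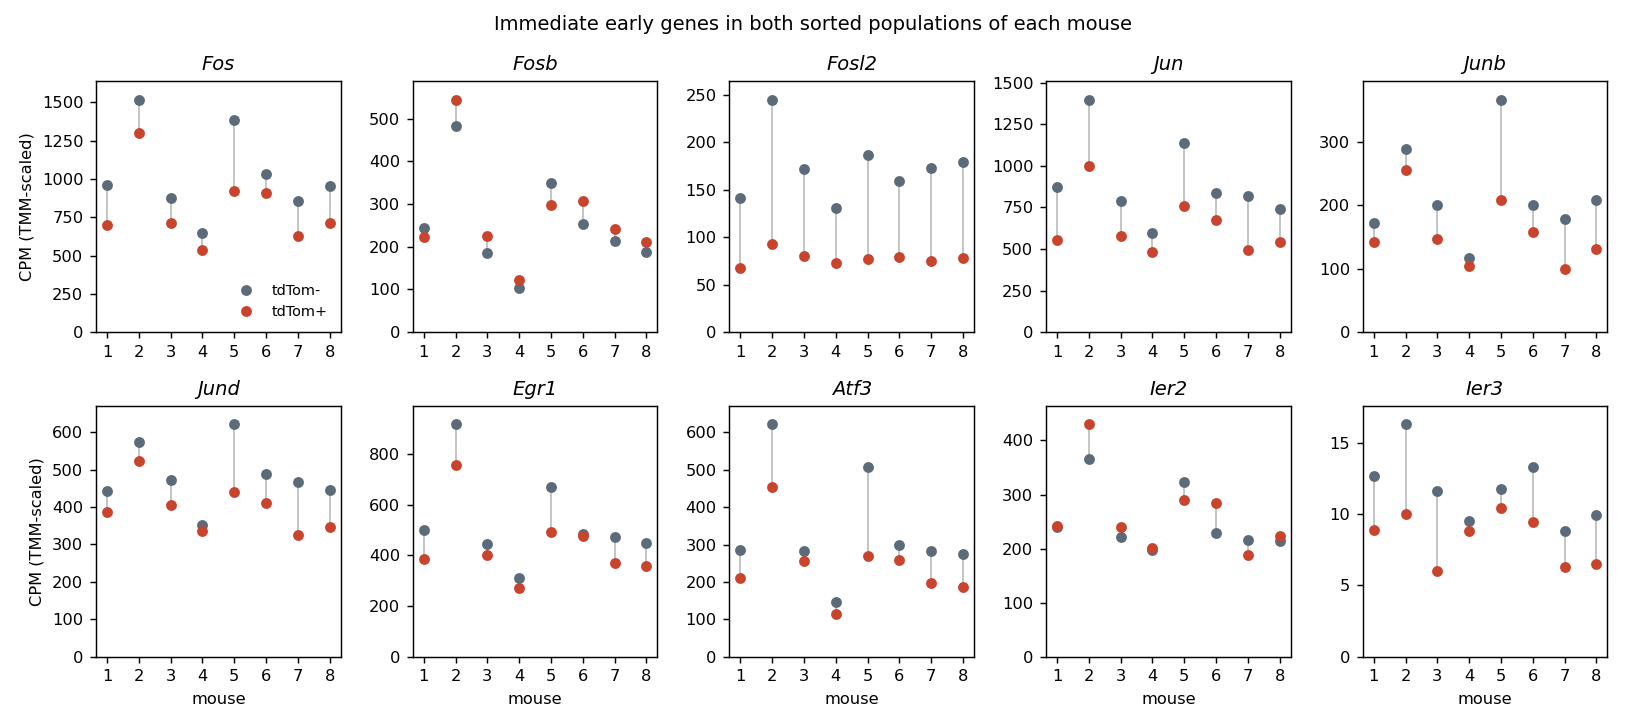
Level of each gene in CPM (vertical axis, linear, from 0) in the tdTom+ and tdTom- library of mice 1 to 8 (horizontal axis), with a grey line joining the 2 libraries of a mouse. For Fosl2 all 8 tdTom+ points, at 67.9 to 93.2 CPM, lie below all 8 tdTom- points, while for the other 9 genes the groups overlap. In 7 of those 9 the tdTom+ point is the lower one in 8 of 8 mice, and for Fosb and Ier2 it is the higher one in 6 of 8.

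Fos (ENSMUSG00000021250, chr12:85473890-85477273), the founding AP-1 subunit and the classical marker of recent stimulation, had 535, 713 and 1304 CPM as its lowest, median and highest value in tdTom+ libraries. In tdTom- libraries these were 650, 957 and 1519 CPM. The groups overlapped widely, since mouse 4 was lowest and mouse 2 highest in both, yet each tdTom+ library was below its own tdTom- partner, by 0.18 to 0.58 on the log2 scale. Fos was on average 1.28-fold lower in tdTom+ than in tdTom- cells, with a log2 fold change of -0.36 ± 0.18 (SE, edgeR adjusted p = 0.0837) without the mouse and -0.36 ± 0.06 (adjusted p = 2.37e-05) with it, so that the size stayed and the error shrank.

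Fosb (ENSMUSG00000003545, chr7:19302721-19310045), a Fos relative that is induced alongside it, ranged from 123 over a median of 234 to 545 CPM in tdTom+ and from 104 over 229 to 484 CPM in tdTom- cells. It was higher in tdTom+ cells in 6 mice and lower in mice 1 and 5. Its log2 fold change was 0.10 ± 0.27 (edgeR adjusted p = 0.755) without and 0.12 ± 0.06 (adjusted p = 0.0983) with the mouse, which does not pass the threshold in either fit.

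Fosl2 (ENSMUSG00000029135, chr5:32136472-32157831) encodes Fra-2, a Fos protein that lacks the strong activation domain of Fos and is made later and for longer. Its lowest, median and highest values were 67.9, 77.5 and 93.2 CPM in tdTom+ libraries. In tdTom- libraries they were 131, 172 and 245 CPM. Its groups did not overlap, with the highest tdTom+ library, mouse 2, still below the lowest tdTom- library, mouse 4. Such separation was not counted over all genes. Fosl2 was 2.20-fold lower in tdTom+ cells, with a log2 fold change of -1.15 ± 0.10 (edgeR adjusted p = 2.92e-09), and of -1.14 ± 0.06 (adjusted p = 7.52e-12) once the mouse was a block. The tdTom+ libraries varied least, by 1.37-fold between the extremes, against 1.88-fold in tdTom- libraries.

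Jun (ENSMUSG00000052684, chr4:95049034-95052222), the partner with which Fos forms the classical AP-1 dimer, had 483, 566 and 1001 CPM in tdTom+ and 596, 826 and 1398 CPM in tdTom- libraries (lowest, median and highest). Mouse 4 was again lowest and mouse 2 highest in both populations, and the groups overlapped. The log2 fold change was -0.50 ± 0.17 (edgeR adjusted p = 0.0132) and, with the block, -0.50 ± 0.06 (adjusted p = 7.65e-07), with within-mouse differences from -0.73 to -0.30.

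Junb (ENSMUSG00000052837, chr8:84976909-84978748) and Jund (ENSMUSG00000071076, chr8:70697739-70700616) are weaker activators than Jun, and Jund is known for its steady expression in resting cells. Junb ran from 100.01 over 144 to 257 CPM in tdTom+ and from 116 over 201 to 367 CPM in tdTom- cells. Jund ran from 324 over 397 to 522 CPM and from 353 over 469 to 621 CPM. For both genes the highest tdTom- library was mouse 5, not mouse 2, and the lowest tdTom+ library was mouse 7, not mouse 4. With the mouse as a block Junb changed by -0.47 ± 0.08 and Jund by -0.28 ± 0.06 on the log2 scale, both towards less in tdTom+ (edgeR adjusted p = 3.15e-05 and 0.000393). Without the block neither passed, at adjusted p = 0.0539 and 0.0304.

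Egr1 (ENSMUSG00000038418, chr18:34859823-34864984), a zinc finger factor induced through the MAP kinase pathway, had a lowest, median and highest value of 273, 393 and 756 CPM in tdTom+ and 311, 479 and 918 CPM in tdTom- libraries. The pairs differed by as little as 0.03 on the log2 scale in mouse 6 and by 0.44 in mouse 5, always towards less in tdTom+. The log2 fold change was -0.27 ± 0.20 (edgeR adjusted p = 0.235) and -0.27 ± 0.05 (adjusted p = 0.000319) with the block.

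Atf3 (ENSMUSG00000026628, chr1:191170296-191218039), which is induced by many kinds of cell stress and often represses its targets, spanned 115, 233 and 453 CPM in tdTom+ and 147, 284 and 622 CPM in tdTom- cells as lowest, median and highest. The distance between the lowest library, mouse 4, and the highest, mouse 2, was 3.95-fold in tdTom+ and 4.23-fold in tdTom- cells, far more than the 1.36-fold average distance between the populations. The log2 fold change was -0.47 ± 0.26 (edgeR adjusted p = 0.116) and -0.45 ± 0.07 (adjusted p = 1.95e-05) with the block.

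Ier2 (ENSMUSG00000053560, chr8:84661331-84662852) encodes a short nuclear protein of the immediate early response and Ier3 (ENSMUSG00000003541, chr17:35821684-35822923) a survival protein that NF-kappaB induces. Ier2 had 189, 241 and 430 CPM in tdTom+ and 197, 225 and 365 CPM in tdTom- libraries, higher in tdTom+ in 6 mice and lower in mice 5 and 7. Its log2 fold change of 0.07 ± 0.16 (edgeR adjusted p = 0.732), or 0.05 ± 0.06 (adjusted p = 0.443) with the block, did not pass. Ier3 was the scarcest gene of the 10, at 6.02, 8.86 and 10.4 CPM in tdTom+ and 8.78, 11.7 and 16.3 CPM in tdTom- libraries, with overlapping groups and less in tdTom+ in 8 of 8 mice. Its log2 fold change was -0.49 ± 0.14 (adjusted p = 0.00433), or -0.49 ± 0.09 (adjusted p = 0.000122) with the block. Without the block its call was lost when mouse 1, 3, 6 or 8 was left out, whereas with the block it was kept without any 1 mouse.

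**Figure D2:**
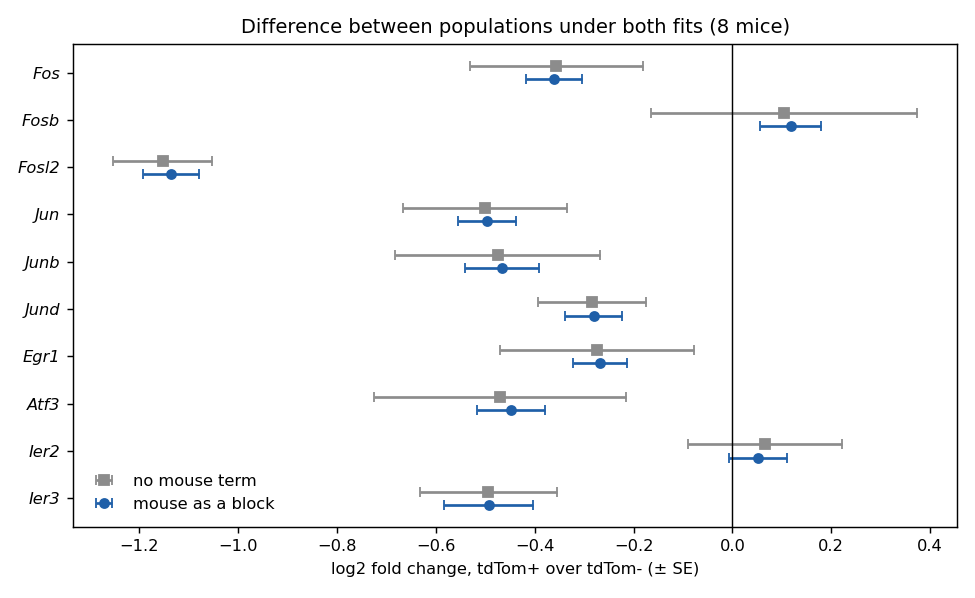
Log2 fold change of tdTom+ over tdTom- (horizontal axis, bars are ± SE) of the 10 genes (vertical axis), from the fit without a mouse term (grey squares) and with the mouse as a block (blue circles). The estimates of both fits nearly coincide, with Fosl2 at -1.15 and -1.14, and the bars of the block are shorter for every gene shown.

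Scaling can move small differences, and the 6 goblet cell markers alone took 45799 to 102590 CPM of the tdTom+ libraries. With the block, 8 genes were lower under RLE scaling, upper-quartile scaling and plain total counts without TMM, and they were the same 8 each time, against 28.9%, 29.7% and 31.8% of all genes. The count was also 8, of the same genes, without each single mouse, against 26.8% to 27.7% of all genes, and within mice 5 to 8, against 25.2%. Within mice 1 to 3 it was 3, Fosl2, Jun and Ier3, against 19.7% of all genes.

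The second comparison asked how far these genes differed between mice in a way that both populations shared. Of the 10 genes, 8 had a mouse term at an edgeR adjusted p under 0.01 (Fos, Fosb, Jun, Junb, Jund, Egr1, Atf3 and Ier2), whereas 5.81% of all genes tested did. Fosb stood at rank 15 of 15841 genes ordered by this test, Atf3 at 27 and Egr1 at 32. Fos was at 85, Jun at 120, Junb at 133 and Ier2 at 151. The remaining genes lay lower, with Jund at 809, Fosl2 at 1084 (adjusted p = 0.0123) and Ier3 at 2139 (adjusted p = 0.0416). Fosl2, the gene with the clearest difference between populations, was therefore among those with the least difference between mice.

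Mouse 2 had the most and mouse 4 the least of most of these mRNAs. The CPM of the 10 genes summed to 5370 in tdTom+ and 6430 in tdTom- cells of mouse 2. In mouse 4 the sums were 2252 and 2616 CPM, the lowest of each population. Mouse 5 was second in both, with 3768 and 5555 CPM, and its tdTom- library was raised more than its tdTom+ library for Atf3, at 507 against 270 CPM, and for Junb, at 367 against 208 CPM. The other 5 mice lay between 2622 and 3569 CPM in tdTom+ and between 3659 and 4000 CPM in tdTom- cells.

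**Figure D3:**
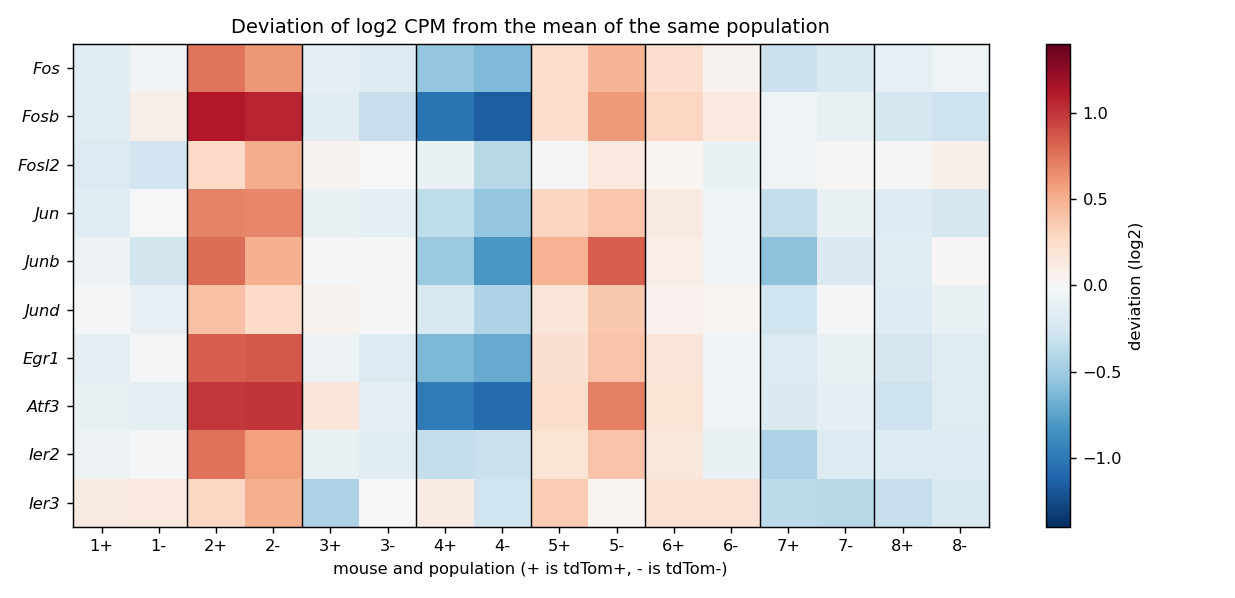
Deviation of the log2 CPM of each gene (rows) from the mean of the same population (colour, log2 units, red above and blue below) in the 16 libraries (columns, tdTom+ and tdTom- of each mouse side by side). Both columns of mouse 2 are red and both columns of mouse 4 mostly blue for Fos, Fosb, Jun, Egr1 and Atf3, while the Fosl2 and Ier3 rows are paler.

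The levels in the 2 libraries of a mouse were correlated over the 8 mice for most of the genes. For Fos, Pearson's r of log2 CPM was 0.941 (exact permutation p = 0.000149, adjusted p = 0.0674 over all genes) and Spearman's rho 0.929 (exact permutation p = 0.00223). Without mice 2 and 4, the farthest from the median, r was still 0.836. For Atf3, r was 0.927 (exact permutation p = 0.00228, adjusted p = 0.109) and rho 0.929 (exact permutation p = 0.00223), and r fell to 0.595 without the same mice, so that much of the relation rested on them. Among the 9 genes other than Ier3, Pearson's r ran from 0.760 in Jund to 0.957 in Fosb (exact permutation p from 0.000149 to 0.0309), and rho from 0.595 in Fosl2 to 0.929 (exact permutation p from 0.00223 to 0.132). Ier3 had an r of 0.611 (exact permutation p = 0.111, adjusted p = 0.398) with a rho of 0.690 (exact permutation p = 0.0694). The median over all 15841 genes was 0.353. An exact permutation p under 0.05 was found for 9 of the 10 genes and for 17.2% of all genes. With the adjustment over all genes 0 of the 10 passed 0.01, and 0 of all genes did, the smallest adjusted p in the data being 0.0437. The series of mouse numbers hold 3, 1 and 4 mice, too few for a correlation within a series.

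The mitochondrial share of counts and the level of some heat shock genes differed between mice too. The share of counts from mitochondrial genes was highest in mouse 2, at 6.92% in tdTom+ and 9.97% in tdTom- cells, and lowest in mouse 4, at 2.23% and 3.74%, as were the sums above. Mouse 5, second in those sums, had a share of 4.313% and 6.665%, below mice 1, 3, 6 and 7 in both populations. The summed level of the 13 heat shock genes, of which Hsp90ab1 and Hspa8 made up the most, was 4210 CPM in the tdTom+ library of mouse 2, 4233 CPM in its tdTom- library, and 3914 and 4839 CPM in those of mouse 4, inside the ranges of 3784 to 4638 and 4187 to 5086 CPM over all mice. Of these 13, 5 had a mouse term at the threshold, the chaperone and cochaperone genes Hspa1a, Hspa1b, Hsph1, Dnaja1 and Dnajb1, against 5.81% of all genes. The part of mitochondrial reads, sorting time or the order of dissection in the differences between mice was not tested.

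The samples were also compared by how closely genes followed the 10 across libraries. After the mean of each population was subtracted, log2 CPM over the 16 libraries was correlated between each member and 14645 genes of at least 1 CPM. Fos was followed most closely by Egr1 (r = 0.975), by Hbegf, an EGF receptor ligand (0.971), and by Jun (0.969). Fosb was followed by Egr1 (0.982), Hbegf (0.976) and Atf3 (0.973). Egr1 had Fosb, Hbegf (0.978) and Atf3 (0.978) nearest to it, and Atf3 had Egr1, Hbegf (0.976) and Sat1 (0.974), which encodes an enzyme of polyamine breakdown.

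Junb and Jund were nearest to each other (r = 0.973), and with Fos they had an r of 0.937 and 0.930. Junb was followed next by Zfp36 (0.966) and Btg2 (0.941), a decay factor of short-lived mRNAs and a growth inhibitor. Jund was followed by the actin gene Actg1 (0.949) and the small GTPase gene Rhob (0.945). Jun was nearest to Egr1 (0.977), Ier2 (0.970) and Fos (0.969), and Ier2 to Jun, Fos (0.951) and the nuclear receptor gene Nr4a1 (0.941). Fosl2 and Ier3 stood apart, with no member among their nearest genes. Those of Fosl2 were Tmem236 (0.894), Efnb2 (0.886), an ephrin ligand, and Espn (0.885), an actin bundler of microvilli. Those of Ier3 were H2-Q4 (0.864), Slc15a2 (0.852) and Rela (0.804), a subunit of NF-kappaB. Libraries of 1 mouse come from the same animal, so these values describe the 16 libraries and carry no p.

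Per kb of exon, which is needed to set genes side by side, Fos was the most abundant in both populations, at 342 ± 102 CPM per kb in tdTom+ and 438 ± 121 in tdTom- libraries (SD over the 8 of each). In tdTom+ cells Jun followed at 199 ± 54.7 and Ier2 at 172 ± 50.3 CPM per kb. Then came Jund at 138, Atf3 at 113, Egr1 at 98.0, Junb at 84.7 and Fosb at 72.5 CPM per kb. Neighbours in this order overlapped in range as far down as Fosb, although Fos exceeded Jun, Jun exceeded Ier2 and Ier2 exceeded Jund in 8 of 8 libraries each. Fosl2 at 13.3 and Ier3 at 7.33 CPM per kb were separated from the rest and from each other without overlap. In tdTom- cells the order was the same except that Jund, at 168, stood beside Ier2, at 165 CPM per kb, where Jund was above Ier2 in 5 of 8 libraries. Egr1 at 119 and Junb at 118 CPM per kb were not separated there either, with Egr1 above in 4 of 8. The lowest tdTom- library of Fosb, at 27.8 CPM per kb, fell below the highest of Fosl2, at 41.9, although Fosb was above Fosl2 in 8 of 8.

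The make-up of each AP-1 family, taken as the share of the family's summed level per kb, was compared between the populations. Fos made up 80.2 ± 1.95% of the Fos family in tdTom+ and 81.5 ± 1.79% in tdTom- cells (SD, n = 8), lower in tdTom+ in 8 of 8 mice. The share of Fosb was 16.4 ± 2.43% in tdTom+ against 12.0 ± 2.15% in tdTom- cells, higher in tdTom+ in 8 of 8 mice. Fosl2 had 3.29 ± 0.73% against 5.67 ± 0.91%, and Fosl1, which encodes Fra-1 and is not among the 10, 0.12 ± 0.05% against 0.74 ± 0.20%. For both Fra genes the share was lower in tdTom+ in 8 of 8 mice. In the Jun family Jund held 33.2 ± 2.62% in tdTom+ and 30.1 ± 2.51% in tdTom- cells, higher in tdTom+ in 8 of 8 mice, while Jun held 47.1 ± 1.49% and 49.5 ± 3.08% and Junb 19.7 ± 1.92% and 20.4 ± 2.83%, higher in tdTom+ in 2 and 3 of 8 mice. Since shares of a family add up to the whole, a higher share of Fosb goes with its own level, which did not pass the test, and with the lower levels of its relatives.

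**Figure D4:**
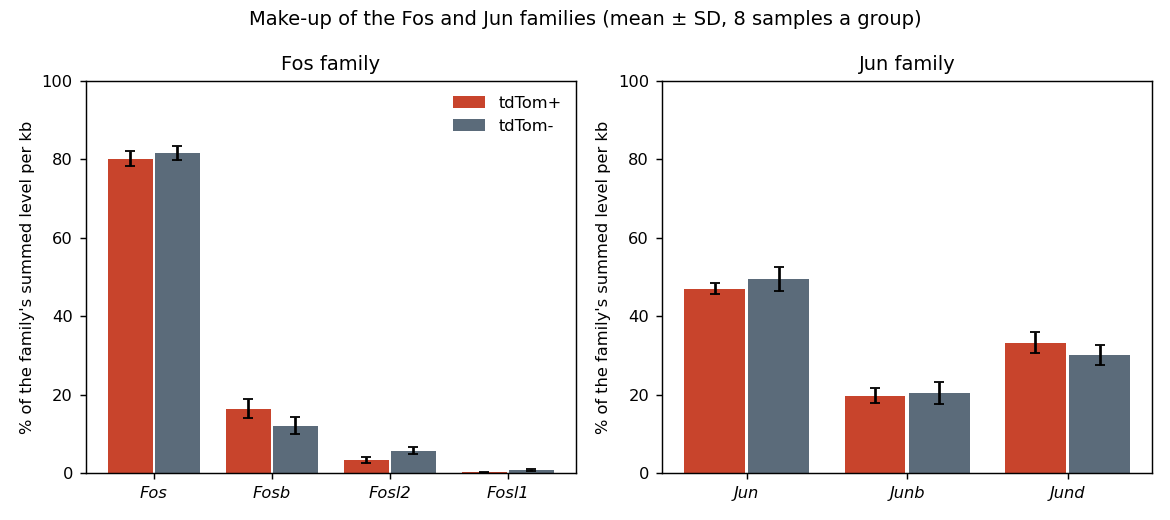
Share of each gene in the summed level per kb of its family (vertical axis, %, from 0 to 100) in tdTom+ and tdTom- cells, as mean ± SD of 8 libraries a group, with the Fos family in the left panel and the Jun family in the right panel. The bars for Fosb, at 16.4% and 12.0%, and Jund, at 33.2% and 30.1%, are taller in tdTom+, and those for Fosl2 and Fosl1 are shorter.

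The third comparison asked whether the difference between the populations itself varied with the series of mouse numbers, the closest thing to a batch that the labels give. Mice 1 to 3 and mice 5 to 8 bear numbers of 2 separate series, and mouse 4, alone in a series of its own, was left out of this fit. An interaction was found for 0 of the 10 genes at an edgeR adjusted p under 0.01, and for 0% of the 15851 genes tested. At an unadjusted p under 0.05 it was found for 1 of the 10, Junb, against 11.3% of all genes. At that limit it was also found for 12 of 32 other immediate early genes and 6 of 6 goblet cell markers. Of the other lists described below, it was found for 0 of 9 AP-1 and Maf family genes, 0 of 21 upstream kinases and factors and 0 of 13 heat shock genes. For Junb the difference between the populations was more negative in mice 5 to 8, by -0.34 ± 0.12 on the log2 scale (edgeR adjusted p = 0.316). Jund had a like sign, at -0.21 ± 0.10 (adjusted p = 0.448), and Ier3 the opposite one, at 0.29 ± 0.17 (adjusted p = 0.563). The SE of this interaction ran from 0.10 to 0.17 over the 10 genes. Even the -0.34 ± 0.12 of Junb was not called, so differences between the series of that size could go undetected.

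Other genes of the same pathway were taken as lists. Of 12 further AP-1 and Maf family genes, which share the leucine zipper, 9 were tested, and 5 were lower and 2 higher in tdTom+ cells without the block and with it. Fosl1 fell by 2.89 ± 0.35 on the log2 scale (edgeR adjusted p = 4.68e-07) and Batf2 fell by 2.77 ± 0.11 (adjusted p = 1.84e-14). Atf7 and Atf2, which bind CREB sites and are regulated mainly after translation, rose by 0.27 ± 0.05 and 0.22 ± 0.06 (adjusted p = 0.000197 and 0.00169). The median of the list was -1.10. Maff, a small Maf factor that itself is rapidly induced, averaged 12.4 CPM (SD 5.26) in tdTom+ libraries against 26.8 CPM (SD 11.6) in tdTom- ones, and like Fosl1 it was lower in tdTom+ in 8 of 8 mice.

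Of 36 further immediate early genes, 32 were tested, of which 13 were lower and 3 higher without the block. With the block 19 were lower and 4 higher, and the median log2 fold change was -0.32 without and -0.31 with it. Nfkbiz, an inducible regulator of NF-kappaB targets, changed by -1.56 ± 0.13, Ier5 by -1.31 ± 0.15 and Errfi1, an inhibitor of the EGF receptor, by -1.25 ± 0.17 on the log2 scale, the largest falls of the list (edgeR adjusted p = 1.28e-09, 1.81e-07 and 1.84e-06). The opposite direction was taken by the orphan nuclear receptors Nr4a2 and Nr4a1, which rose by 1.63 ± 0.16 and 1.36 ± 0.25 (adjusted p = 1.41e-08 and 7.86e-05), and by the growth arrest gene Gadd45g, which rose by 0.95 ± 0.17 (adjusted p = 4.98e-05). Nr4a1 had 108 to 356 CPM in tdTom+ and 37.3 to 122 CPM in tdTom- libraries. It was higher in tdTom+ in 8 of 8 mice, unlike 8 of the 10 genes above, although it was near Ier2 in its course over the libraries. Of the 32 genes 18 had a mouse term at the threshold, against 5.81% of all genes, Dusp1, Arc, Zfp36, Egr2, Nr4a1 and Ccn1 among them.

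**Figure D5:**
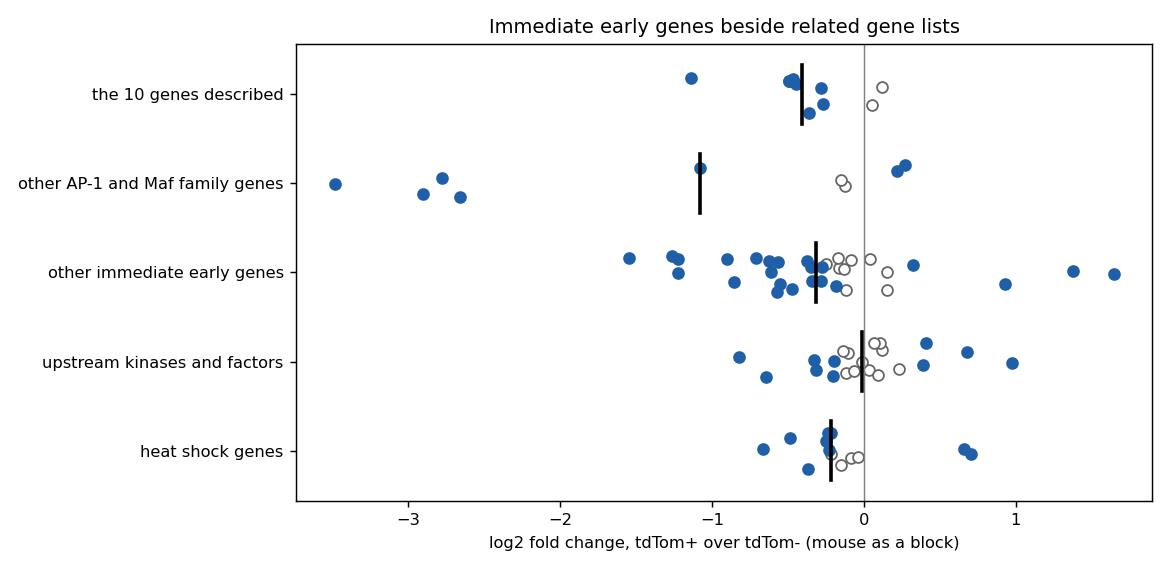
Log2 fold change of tdTom+ over tdTom- with the mouse as a block (horizontal axis) for each tested gene of 5 lists (vertical axis, points spread at random within a list), filled where the adjusted p is under 0.01 and open otherwise, with a bar at the median of the list. Most of the 10 genes described and of the other immediate early genes lie below 0, with medians of -0.40 and -0.31, while the upstream kinases and factors are centred at -0.01.

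The 21 kinases and factors that act upstream, such as the MAP kinases, serum response factor and CREB, had a median log2 fold change of -0.01, with 4 higher and 6 lower in both fits. The largest rises were in Elk3, a cofactor of serum response factor, by 0.97 ± 0.13, in Crem, a relative of CREB, by 0.69 ± 0.12, and in the JNK gene Mapk9 by 0.41 ± 0.04 on the log2 scale (edgeR adjusted p = 2.73e-06, 4.39e-05 and 9.33e-08). The largest falls were in the kinase genes Rps6ka5, at -0.82 ± 0.17, Rps6ka3, at -0.64 ± 0.08, and Map2k1, at -0.33 ± 0.06 (adjusted p = 0.000256, 1.30e-06 and 0.000122). Only 1 of the 21, Srf itself, had a mouse term at the threshold (adjusted p = 0.00257).

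Of the 13 heat shock genes, which respond to protein damage and warmth, 3 were lower and 1 higher in tdTom+ cells without the block, and 7 lower and 2 higher with it. The median was -0.21 in both fits. Hsph1 changed by -0.67 ± 0.13, Hspd1 by -0.50 ± 0.09 and Dnaja1 by -0.37 ± 0.09 on the log2 scale (edgeR adjusted p = 0.000112, 5.98e-05 and 0.00152), all cochaperones or chaperones. Bag3, a cochaperone of Hsp70, rose by 0.66 ± 0.06 (adjusted p = 3.34e-09). The 6 epithelial markers had a median of -0.47 with 5 lower and 1 higher, so they are no neutral scale. They ran from -1.08 to 0.68, and the 10 immediate early genes, with a median of -0.41, from -1.15 to 0.10. The median over all genes was 0.0039. The keratin genes Krt8 and Krt19 changed by -1.08 ± 0.08 and -1.03 ± 0.09, the adhesion gene Cldn7 by -0.56 ± 0.07 and the keratin gene Krt18 by 0.68 ± 0.06 on the log2 scale (adjusted p = 4.66e-10, 1.60e-09, 2.45e-07 and 1.07e-08).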

How the data were processed

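The authors made stranded mRNA libraries, aligned reads to GRCm38.p3 with TopHat2 2.1.1 and deposited featureCounts counts per gene on exons for each of the 16 samples, without normalization. The file headers name version 1.5.0-p1 or 1.5.0, the submitters' processing notes Subread 1.5.2. Symbols came from GENCODE M21. Groups and mouse numbers came from the labels, and a number found in both groups is 1 animal.

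The deposited counts went into the quasi-likelihood fit of edgeR 4.0.16 (R 4.3.3) after filterByExpr and TMM scaling, without a mouse term, and calls were made at a Benjamini-Hochberg adjusted p under 0.01 over 15841 genes. A standard error is the log2 fold change divided by the root of its F value. The mouse as a block, the test of the mouse term and the interaction with the series of mouse numbers were fitted likewise. Log2 CPM used a prior count of 2, and correlations across mice all 40320 pairings. Alternatives were DESeq2 1.42.0, limma-voom (limma 3.58.1), RLE and upper-quartile scaling, other filters, an adjusted p of 0.05, and fewer mice. Blocked fits with other scalings or fewer mice, and the core TGACG, were added after seeing the data. The fit without a mouse term, the test of the mouse term and the interaction were also tried on simulated counts. The test between populations with the mouse as a block was not.

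The 10 genes and all lists were chosen with earlier results of these data known. From the AP-1, immediate early, upstream, heat shock and epithelial lists the 3 largest called changes in each direction were named, except 1 gene that is not reported here, and the 3 genes most like each of the 10. The same rule was to name markers of the other cell types, which are given by counts and sums instead, except the called immune, stromal and endothelial ones. Maff, Srf, the markers at 0 and the genes named by their mouse term were picked after their values were seen. At this depth 3 counts are 0.0655 to 0.182 CPM, a limit for counting error only.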

Additional observations from a re-analysis of the deposited data

Results flagged for a closer look

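Of 50 groups of 8 samples that were compared (the 10 genes, the summed levels of the gene lists and the totals), 3 held a library far from the others by Dixon's ratio, where chance gives about 1 in 20 groups. None of the 3 was one of the 10 immediate early genes. The goblet cell markers summed to 102590 CPM in the tdTom+ library of mouse 7, with 65298 CPM in the next library. The total of the tdTom- library of mouse 4 was 45792000 counts to 5 digits, with 20669000 in the next. The tuft cell markers summed to 87.7 CPM in the same library, the lowest of its group, with 116 CPM in the next. The tdTom- library of mouse 4 was also the lowest of its group for 9 of the 10 genes, and with the block the 8 genes lower in tdTom+ cells were the same without mouse 4 and without mouse 7.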

How the results depend on the processing

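Without a mouse term, 2 of the 10 genes were lower in tdTom+ cells, against 25.5% of all genes. With the mouse as a replicate block there were 8, against 28.9%. At an adjusted p of 0.05 there were 4, against 4843 of 15841 genes. With mice 1 to 3 only there was 1, against 2559 of 16000 genes. With 1 mouse left out there were 1 to 3, against 3700 to 3914 of all genes, Ier3 being lost without mouse 1, 3, 6 or 8. DESeq2 and limma-voom called 3, adding Jun, against 4269 and 3986 of 15841 genes. With the block the count of 8 became 3 with mice 1 to 3 only, against 19.7% of all genes. The mouse term was called for 8 genes, against 5.81% of all genes. With mice 5 to 8 only it was called for 5, against 1.73%, and with 1 mouse left out for 7 to 8, against 3.9% to 6.16%. With at least 10 counts in every sample it was called for 9, against 6.73%, and at an adjusted p of 0.05 for 10, against 14.8%. By the exact permutation test of r, whose smallest adjusted p over all genes was 0.0437, it was called for 0, as for 0 of all genes. The cause of these shifts was not tested. Over the 10 genes, 180 fold changes under alternatives kept their direction, 161 also their side of the threshold, 13 came to pass it and 6, all of Ier3, no longer did. The interaction stayed at 0 under each alternative run, and the count of genes higher in tdTom+ cells stayed at 0 under each one. Depth limits Ier3 most, at 6.02 to 16.3 CPM. Calls without the block leave the spread between animals in the error of the test between populations. In addition, 8 animals in 3 series of numbers cannot tell series and mouse apart.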
